A study of Mus musculus with 16 samples.

Results

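The response of brown adipocytes to SR-3420, a ligand of ABHD5 that sets off lipolysis, was described in cells whose carnitine palmitoyltransferase 1 (CPT1) was blocked with etomoxir. The 3 samples given etomoxir and SR-3420 were compared with the 3 given etomoxir alone. These 6 of the 16 samples analysed were chosen by their labels. The cells were BAT-LgT, a wild-type mouse brown preadipocyte line made immortal with the large T antigen of SV40, and were used at day 7 of differentiation in culture. All samples thus derive from 1 line that carries a viral oncogene. The cells were pre-treated with 50 µM etomoxir for 1 h and then kept with or without SR-3420 for 3 h. Its dose was 10 µM by the sample labels and higher in the study's text. Below, "etomoxir samples" (E1, E2 and E3 by replicate) had no SR-3420, and "stimulated samples" (S1, S2 and S3) had etomoxir and SR-3420. The other samples serve only to compare responses. They were given vehicle (2 samples), SR-3420 without inhibitor (2), 5 µM triacsin C (3) or triacsin C with SR-3420 (3) at the same times. Triacsin C inhibits long-chain acyl-CoA synthetases. Replicate 1 of vehicle and replicate 2 of SR-3420 without inhibitor were not in the data. Total RNA was sequenced, and reads counted in genes summed to 14993463, 11813662 and 10993504 in the etomoxir samples and to 25670624, 13173278 and 16512525 in the stimulated samples.

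As background, lipolysis starts when ABHD5 leaves the droplet protein perilipin 1 and activates the lipase ATGL, which releases fatty acids from stored triglyceride. Fatty acids are coupled to coenzyme A, and CPT1 in the outer mitochondrial membrane then transfers long acyl chains to carnitine, which commits them to oxidation in mitochondria. Brown adipocytes are known for dense mitochondria, for uncoupling protein 1 and for the use of fatty acids, glucose and branched-chain amino acids as fuel.

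The labelled cell type was checked against marker genes, as normalized counts per kilobase of counted length, with E1, E2 and E3 given before S1, S2 and S3. Of 20 markers of brown adipocytes 19 passed the filter on low counts. Their summed level was 245897, 235445 and 284441 against 130966, 103017 and 178855, with Fabp4 the most abundant, and 8 fell and 0 rose with SR-3420. The defining markers Adipoq, Plin1, Fabp4 and Pparg were abundant in all 6 samples. Ucp1, which defines thermogenic fat, was low at 18.2, 5.96 and 8.57 against 19.5, 26.0 and 26.9, and Dio2 had 0 reads in each sample. Markers of fibroblasts or preadipocytes summed to 6571, 4860.1 and 3426 against 14167, 9958 and 7184, with Col1a1 the most abundant. Of the defining ones, Pdgfra was at 106, 90.1 and 93.5 against 157, 149 and 118, Dlk1 at 128, 93.9 and 65.1 against 259, 188 and 101 and Dpp4 at or near 0. Of the 9 tested, 6 rose, Pdgfra among them. Markers of dividing cells summed to 2654, 2794 and 2884 against 3686, 4273 and 3761, with Cdc20 the most abundant. Of the 8 tested, Birc5, which acts in cell division, rose (log2FC 0.69, adjusted p = 0.0076). Of 10 macrophage markers 3 passed the filter and Fcgr1 fell at a handful of reads. They summed to 73.7, 78.3 and 56.6 against 90.2, 70.1 and 65.1, with Cd68 the most abundant and the defining Emr1 at or near 0. Of 8 endothelial markers Kdr alone was tested and rose, with sums of 9.22, 8.49 and 3.33 against 16.2, 10.5 and 12.5 and Pecam1 and Cdh5 at or near 0. Skeletal muscle markers (2 of 9 tested, 0 changed) summed to 73.7, 55.5 and 24.5 against 98.7, 58.8 and 39.0, with Acta1 and Myod1, a defining one, the most abundant and Ckm at or near 0. Myod1 was at 17.6, 8.22 and 8.24 against 27.0, 29.5 and 13.2. In bulk RNA, fewer cells of a type and less RNA per cell cannot be told apart. The part of the mix of adipocytes and undifferentiated cells in the lower adipocyte and higher matrix genes below was not tested.

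Replicates 1 and 3 of a group differed along an axis that both groups shared. No 2 replicates had the same counts. The variance of their counts was 18.7 to 156 times that of sampling noise (chi-square over its degrees of freedom), which separate samples can be expected to exceed. Genes were divided into 5 classes of equal size by the GC content of their longest protein-coding transcript, known for 93.5% of those tested. The median log2 ratio of E1 over E3 was −0.97 in the class of lowest and 0.68 in that of highest GC content. That of S1 over S3 was −0.91 and 0.62. Replicate 2 did not follow this axis alike in both groups. The median log2 ratio of E2 over the other replicates was −0.16 and 0.12, and that of S2 was 0.02 and −0.12. The response itself was nearly level across the classes, with a median log2 fold change of 0.07 in the lowest, −0.059 in the fourth and −0.0031 in the highest. By the study's text the RNA-seq replicates were independent experiments; whether samples of equal number came from the same one was not stated. The p-values below measure only the spread between these samples.

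SR-3420 changed 3234 of 12786 genes tested, with raised and lowered genes in nearly equal number. At an adjusted p under 0.05, 1597 genes (12.5%) rose and 1637 (12.8%) fell. The test was the quasi-likelihood test of edgeR, with p-values adjusted after Benjamini and Hochberg. At least 2-fold, 556 genes (4.35%) rose and 580 (4.54%) fell. The median log2 fold change (log2FC) of all genes was 0.01. In 1506 of the raised and 1528 of the lowered genes the 3 stimulated samples did not overlap with the 3 etomoxir samples. Of all genes tested, 2020 had each stimulated sample above and 2123 each below the etomoxir samples. Genes raised at least 2-fold were low before stimulation, with a median count per kilobase of 49.9 in the etomoxir samples. It was 70.2 for those lowered at least 2-fold and 158 for all genes tested. Leaving out S2 gave 1041 raised and 948 lowered genes, 322 of these lowered at least 2-fold. With only the compared groups in the fit, 620 rose and 585 fell. A block for replicate number gave 2897 and 2879. With trends over GC content removed, which was chosen after seeing the data, they were 2863 and 2749. Without each sample in turn, 937 raised and 876 lowered genes passed every time. Genes given with values below as raised or lowered are among these unless an adjusted p without a sample follows. Genes named without a value passed in the fit of all samples, and some of these calls were lost without 1 sample.

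Normalized counts of a gene are printed below for E1, E2 and E3 first and then, after "against" or "to", for S1, S2 and S3. Counts of lists stand beside the shares of all genes tested, 12.5% raised and 12.8% lowered. The members of the lists were chosen with earlier results of these data known, and some genes are in more than 1 list. The part of this choice in the shares and medians of lists was not tested. A number in parentheses after such a count is its value when the sample named there is left out. These shares do not apply to the numbers in parentheses. Over all genes, 1041 rose and 948 fell without S2, and 1097 rose and 1113 fell without E2. Without E1, 1409 rose and 1239 fell, and without E3, 1482 rose and 1716 fell. Without S1, 1475 rose and 1583 fell, and without S3, 1605 rose and 1528 fell. Of the genes given with values, Acad11, Cebpd, Cideb, Cox15, Crat, Ddit3, Eif2ak1, G6pdx, Pcx, Pfkfb2, Slc25a35, Timp3 and Tm7sf2 overlap another gene of the table. Strand use in counting was not stated, so their reads may be shared with that gene.

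**Figure D1:**
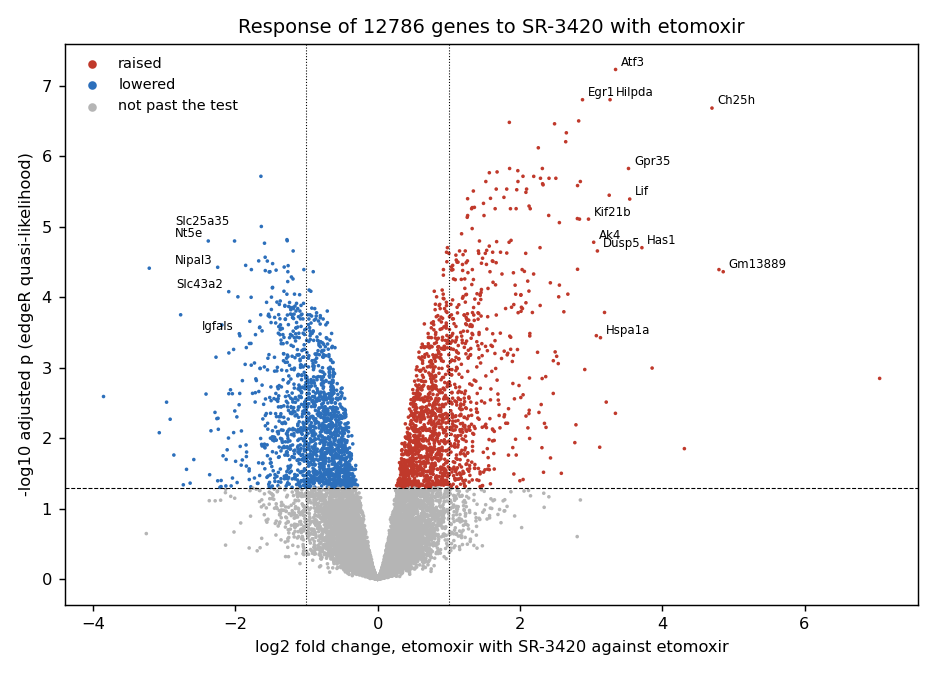
Each point is 1 of the 12786 genes tested, with its log2 fold change between stimulated and etomoxir samples on the x axis and −log10 of its adjusted p on the y axis; the dashed line marks an adjusted p of 0.05 and the dotted lines a 2-fold change. Raised genes (red) reach further from 0 than lowered genes (blue), up to a log2FC of 7.06 against −3.85. Of the labelled genes, Ch25h lies at 4.70 and Nt5e at −2.38.

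Several of the genes that rose most had low counts with etomoxir alone. Ch25h (chromosome 19, 34548274 to 34549625, minus strand of mm9) encodes cholesterol 25-hydroxylase, which makes 25-hydroxycholesterol. Its normalized counts were 18.1, 27.2 and 20.0 against 725, 562 and 405, and the lowest stimulated sample stood far above the highest etomoxir sample (log2FC 4.70, standard error 0.25, adjusted p = 2.08e-07). Counts of Gm13889 (chromosome 2, 93795967 to 93797257, minus strand) went from 18.1, 13.1 and 4.70 to 223, 473 and 381 (log2FC 4.86, standard error 0.53, adjusted p = 4.34e-05). Its groups did not overlap, and E3 was the lowest sample. Has1 (chromosome 17, 17980290 to 17992152, minus strand), which synthesises hyaluronan at the cell surface, had 26.3, 37.0 and 16.4 against 364, 458 and 229.8 (log2FC 3.71, standard error 0.36, adjusted p = 1.98e-05). Gpr35 (chromosome 1, 94869696 to 94882968, plus strand), a G protein-coupled receptor, was at 29.0, 20.7 and 22.3 against 296, 263 and 276 (log2FC 3.53, standard error 0.24, adjusted p = 1.49e-06). The 3 stimulated samples of Gpr35 lay close together and the groups were wide apart. Ak4 (chromosome 4, 101091894 to 101140376, plus strand), a mitochondrial adenylate kinase, was at 46.2, 57.7 and 43.5 against 307, 404 and 496 (log2FC 3.04, standard error 0.29, adjusted p = 1.66e-05). Kif21b, a kinesin motor, had a log2FC of 2.96. These are 6 of the 15 genes with the largest rise among those with separate groups and a mean count of at least 100. The others, Lif, Atf3, Hilpda, Hspa1a, Dusp5, Egr1, Egr2, Egr3 and Fosb, are described with their roles.

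Among the leading genes, lowered ones changed less steeply than raised ones. Nt5e (chromosome 9, 88222447 to 88266927, plus strand) encodes CD73, the surface nucleotidase that turns AMP into adenosine. Counts were 254, 243 and 357 against 54.5, 43.8 and 63.8 (log2FC −2.38, standard error 0.23, adjusted p = 1.59e-05), so that every etomoxir sample was above every stimulated one. Slc43a2 (chromosome 11, 75345196 to 75391074, plus strand), a carrier of neutral amino acids, had 1156, 971 and 762 against 306, 160.2 and 208 (log2FC −2.09, standard error 0.25, adjusted p = 8.33e-05). Nipal3 (chromosome 4, 135004816 to 135050419, minus strand) was at 214, 232 and 183 against 59.0, 32.8 and 38.4 (log2FC −2.25, standard error 0.24, adjusted p = 3.76e-05). Neither gene's groups overlapped, and S2 was the lowest sample for both. Igfals (chromosome 17, 25015715 to 25018953, plus strand), the acid-labile subunit that holds insulin-like growth factors in the circulation, had 249, 210.1 and 147 against 66.9, 40.8 and 48.3 (log2FC −1.94, standard error 0.28, adjusted p = 0.000329). The mitochondrial carrier Slc25a35 had a log2FC of −2.01, the flavin monooxygenase Fmo5 of −1.85 and the acyl-CoA dehydrogenase family member Acad12 of −1.78. The lysosomal carrier Slc46a3 had −1.78, the serpin Serpina3c −1.77 and the cytochrome P450 Cyp2f2 −1.72. The remaining genes among the 15 with the largest falls were Trim14 (−1.85), Pm20d2 (−1.70), Lyrm9 (−1.67), the actin-bundling Dmtn (−1.67) and Ccdc64 (−1.66).

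**Figure D2:**
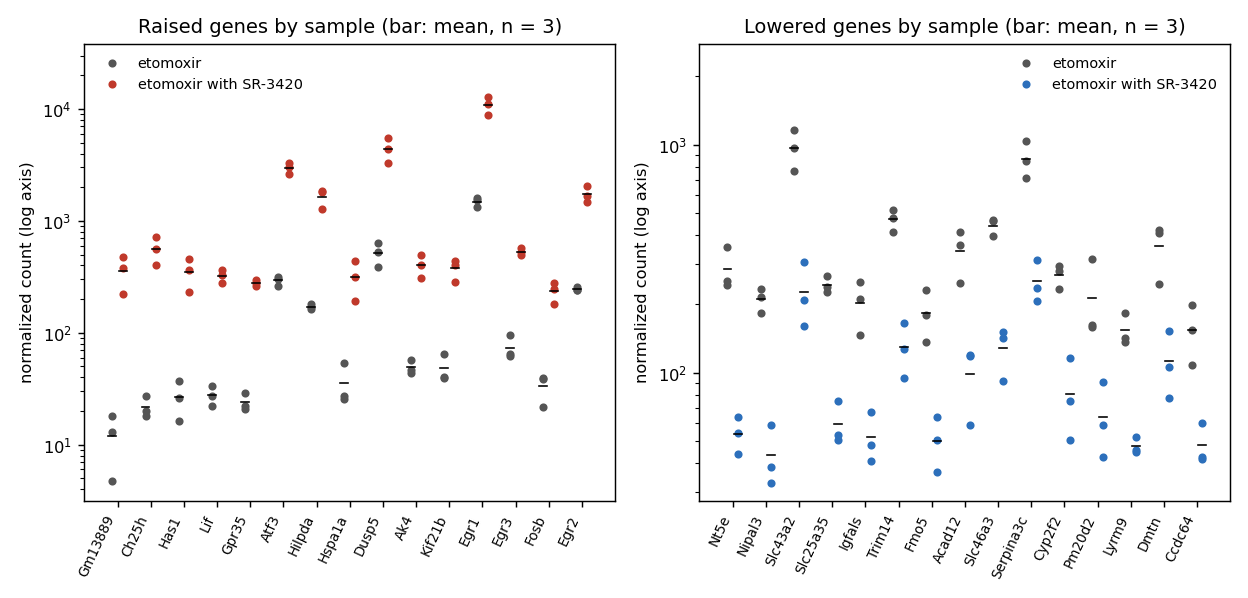
Normalized counts of single samples, on a log axis, for the 15 raised (left) and the 15 lowered genes (right) with the largest log2FC among those with separate groups and a mean count of at least 100; grey points are etomoxir samples, coloured points stimulated samples and bars the mean of 3. Within each gene the coloured and grey points do not mix, as for Ch25h with means of 21.8 against 564 and Nt5e with 284 against 54.0.

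Promoter sequence is shown for genes that moved together, as windows of 250 bases before to 50 after the start, searched on both strands for the letters of known factors. Windows from RefSeq (GRCm38.p6, a later build than mm9) were matched to 10224 of the genes tested (13093 windows). Only 75.9% of the genes raised and 74.3% of those lowered at least 2-fold had a match, so that a comparison of motif shares between these lists is void and is not given. Over all matched windows, the cAMP response element was found as TGACGTCA, in 3.03%, and the AP-1 site as TGANTCA, in 5.33%. The composite element of C/EBP and ATF4 was found as TGATGNAA, in 2.27%, and the direct repeat 1 core of PPAR and RXR as GGTCANAGG, in 1.48%. Also searched were the pair of heat shock units (TTCNNGAA, in 6.68%), the antioxidant response element (TGACNNNGC, in 14.2%), the E-box (CACGTG, in 9.77%) and the EGR site (GCGTGGGCG, in 1.16%). The last were the FOXO site (GTAAACA, in 2.51%), the core of XBP1 and ATF6 (TGACGTGG, in 0.840%), the core of the sterol regulatory element (TCACNCCAC, in 1.12%) and the TATA box (TATAAA, in 7.19%). Another of these 12 motifs overlapped the match in 4, 74, 4 and 13 windows with the first 4. For each of the first 4 motifs, the windows of 2 named genes with the motif are printed 5′ to 3′ along the gene's strand. The match on either strand is in capitals and its first base is counted from the start. Only raised genes were eligible for the first 3 motifs and only lowered genes for the direct repeat. The direct repeat was also found in windows of raised genes, which are not printed. Not all named genes were open to this choice, so a gene not printed may have changed more. Areg (chr5:91139349-91139648, plus strand) and Ch25h (chr19:34475099-34475398, minus strand) hold the cAMP response element, both at −61. Lif (chr11:4257318-4257617, plus strand, at −228) and Gpr35 (chr1:92978653-92978952, plus strand, at −184 in 1 of its 2 windows) hold the AP-1 site. Atf3 (chr1:191183284-191183583, minus strand, at −110) and the cystine carrier Slc7a11 (chr3:50443564-50443863, minus strand, 2 matches, the first at −66) hold the composite element. The lowered Igfals (chr17:24877594-24877893, plus strand, 1 of its 3 windows) and Cox8b (chr7:140900397-140900696, minus strand) hold the direct repeat after the start, at 27 and 33. A match describes letters in the window and says nothing about binding.
Areg: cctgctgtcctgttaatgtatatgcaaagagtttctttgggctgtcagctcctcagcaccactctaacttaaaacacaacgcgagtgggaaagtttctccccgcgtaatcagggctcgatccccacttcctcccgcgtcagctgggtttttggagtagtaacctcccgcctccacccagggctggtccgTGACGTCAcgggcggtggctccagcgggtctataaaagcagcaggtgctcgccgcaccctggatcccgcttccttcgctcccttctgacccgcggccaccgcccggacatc
Ch25h: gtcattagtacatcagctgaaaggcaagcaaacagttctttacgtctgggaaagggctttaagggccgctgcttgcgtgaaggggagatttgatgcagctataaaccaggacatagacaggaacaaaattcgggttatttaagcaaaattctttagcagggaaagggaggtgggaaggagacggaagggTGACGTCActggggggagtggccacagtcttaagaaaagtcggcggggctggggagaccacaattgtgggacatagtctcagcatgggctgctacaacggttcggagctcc
Lif: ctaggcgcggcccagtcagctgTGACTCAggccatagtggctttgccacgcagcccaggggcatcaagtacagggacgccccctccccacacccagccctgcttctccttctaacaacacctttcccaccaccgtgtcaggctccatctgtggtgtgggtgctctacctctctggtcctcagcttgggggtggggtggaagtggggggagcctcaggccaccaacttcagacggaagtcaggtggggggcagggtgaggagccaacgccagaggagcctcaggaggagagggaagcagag
Gpr35: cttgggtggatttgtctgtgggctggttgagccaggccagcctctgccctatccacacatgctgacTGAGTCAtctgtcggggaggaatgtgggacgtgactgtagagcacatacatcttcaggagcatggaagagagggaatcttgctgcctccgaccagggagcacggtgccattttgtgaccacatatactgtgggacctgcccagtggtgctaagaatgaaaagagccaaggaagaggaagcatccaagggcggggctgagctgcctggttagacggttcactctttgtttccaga
Atf3: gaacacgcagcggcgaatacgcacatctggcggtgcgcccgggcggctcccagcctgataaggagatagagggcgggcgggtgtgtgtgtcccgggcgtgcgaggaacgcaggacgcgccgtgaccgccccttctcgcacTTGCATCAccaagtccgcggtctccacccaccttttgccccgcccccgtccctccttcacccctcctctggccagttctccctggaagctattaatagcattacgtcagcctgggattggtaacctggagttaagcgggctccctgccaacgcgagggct
Slc7a11: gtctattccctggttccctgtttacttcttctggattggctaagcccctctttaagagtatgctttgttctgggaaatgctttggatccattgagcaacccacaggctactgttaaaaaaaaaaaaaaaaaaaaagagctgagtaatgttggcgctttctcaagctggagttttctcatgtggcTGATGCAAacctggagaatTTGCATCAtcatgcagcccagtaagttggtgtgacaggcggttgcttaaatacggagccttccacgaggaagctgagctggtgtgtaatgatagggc
Igfals: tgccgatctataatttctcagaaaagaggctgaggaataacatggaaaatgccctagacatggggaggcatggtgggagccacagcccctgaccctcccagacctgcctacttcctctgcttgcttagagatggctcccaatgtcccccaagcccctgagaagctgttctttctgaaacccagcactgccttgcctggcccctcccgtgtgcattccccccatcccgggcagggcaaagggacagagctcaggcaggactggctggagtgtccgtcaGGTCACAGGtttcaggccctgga
Cox8b: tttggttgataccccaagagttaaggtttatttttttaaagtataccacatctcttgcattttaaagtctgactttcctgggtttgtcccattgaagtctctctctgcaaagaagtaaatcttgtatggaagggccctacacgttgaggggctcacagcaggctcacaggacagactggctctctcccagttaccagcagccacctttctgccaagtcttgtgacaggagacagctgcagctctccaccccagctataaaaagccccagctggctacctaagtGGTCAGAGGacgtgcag

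CPT1 was the blocked step, so the genes of the carnitine shuttle come first. Cpt1a (chromosome 19, 3323301 to 3385733, plus strand), the liver isoform and a target of etomoxir, had 1670.0, 1246 and 1218 against 2317, 1789 and 1463. Its groups overlapped (log2FC 0.43, standard error 0.19, adjusted p = 0.107), and the test passed when either of 2 samples was left out (0.0448 without E1, 0.0388 without S3). Cpt1b, the muscle isoform, had counts of 39.8, 39.2 and 30.5 against 39.9, 36.8 and 43.3 on a counted length of only 150 bases, and its groups overlapped too (log2FC 0.13, adjusted p = 0.678). Cpt2 (chromosome 4, 107576587 to 107596194, minus strand), which hands the acyl group back to coenzyme A inside mitochondria, had 3138, 2762 and 2537 against 1252, 943 and 1191. The 3 stimulated samples were all below the 3 etomoxir samples (log2FC −1.31, standard error 0.14, adjusted p = 3.73e-05). Slc25a20, the carrier between both enzymes, was at 855, 1006 and 1072 against 612, 697 and 909 with overlapping groups (log2FC −0.40, adjusted p = 0.0817, 0.0168 without S3). In the list of the carnitine shuttle and malonyl-CoA, 0 of 10 members tested rose (2 without E1, 1 without S3) and 4 fell. The median log2FC of the list was −0.29. Beside Cpt2, Mlycd fell, which removes malonyl-CoA, the natural inhibitor of CPT1 (log2FC −1.04, adjusted p = 0.00744). Acaca, which makes malonyl-CoA, fell as well (log2FC −0.66, adjusted p = 0.00184). The fourth was Crat, carnitine acetyltransferase (log2FC −0.80, adjusted p = 0.0153, 0.0603 without E1, 0.0754 without S2).

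Many enzymes that degrade fatty acids fell, in mitochondria and in peroxisomes. Among genes of mitochondrial beta-oxidation, 0 of 18 members tested rose and 12 fell (7 without S2), with a median log2FC of −0.72. Acads (chromosome 5, 115560308 to 115569355, minus strand), the short-chain acyl-CoA dehydrogenase, had 4490.1, 3889 and 2842 against 2265, 1289.7 and 1634 (log2FC −1.11, standard error 0.25, adjusted p = 0.00505), and no stimulated sample reached an etomoxir sample. Echs1, an enoyl-CoA hydratase, fell from 3808, 4111 and 4532 to 1997, 1639 and 2571 (log2FC −0.998, standard error 0.15, adjusted p = 0.000409). Acad11, an acyl-CoA dehydrogenase, had a log2FC of −1.15 (adjusted p = 0.000157). In the list of peroxisomal oxidation and thioesterases, 0 of 22 members tested rose and 9 fell, with a median log2FC of −0.62. Ehhadh, the bifunctional peroxisomal enzyme, was at 992, 1129 and 1363 against 413, 323 and 689 (log2FC −1.28, standard error 0.21, adjusted p = 0.000732). Catalase (Cat), which removes peroxide, fell from 7654, 8215 and 10489 to 3605, 3041 and 5137 (log2FC −1.15, standard error 0.17, adjusted p = 0.000416). Acox3, an acyl-CoA oxidase, had a log2FC of −1.19 (adjusted p = 5.50e-05). All 3 had stimulated samples below all etomoxir samples.

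Genes of the lipid droplet moved in both directions. Plin2, which coats droplets in most cells, rose from 7921, 6684 and 5158 to 20276, 17234 and 15463 (log2FC 1.43, standard error 0.21, adjusted p = 0.000337). Hilpda (chromosome 6, 29222488 to 29225449, plus strand), an inhibitor of ATGL, rose from 162, 179.6 and 171 to 1848, 1283 and 1794 (log2FC 3.27, standard error 0.17, adjusted p = 1.58e-07). For both genes the groups were apart. They were the raised members of the list, in which 2 of 19 members tested rose and 10 fell, with a median log2FC of −0.88. Pnpla3, a lipase and acyltransferase of droplets, had 2536, 2298 and 1947 against 952, 566 and 774 (log2FC −1.56, standard error 0.19, adjusted p = 0.000118). The carboxylesterases Ces1d and Ces1f had log2FC of −1.42 and −1.49, and Cideb, of the CIDE family of droplet proteins, had −1.43. Pnpla2, which encodes ATGL, was at 34622, 28769.7 and 20381 against 21136, 10748 and 13578 with overlapping groups (log2FC −0.88, standard error 0.31, adjusted p = 0.0492). That call was lost in 4 of the fits (0.16 without E1, 0.115 without E2, 0.191 without S2, 0.118 without S3). Abhd5, the protein that SR-3420 binds, was at 1890.1, 2097 and 2749.7 against 1249.9, 1329 and 1979, with S3 above the lowest etomoxir sample. It did not pass the test (log2FC −0.55, standard error 0.20, adjusted p = 0.0531), though it did without 1 of 2 samples (0.0442 without E1, 0.00886 without S3) and in several other settings, such as with DESeq2.

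Genes of fatty acid uptake and storage fell in part. In the list of uptake and activation, 2 of 16 members tested rose and 6 fell (2 without S2), with a median log2FC of −0.41. Vldlr, the receptor of very low density lipoprotein, rose (log2FC 1.26, adjusted p = 4.00e-06). The other raised member was Angptl4 (chromosome 17, 33911845 to 33918520, minus strand), the secreted inhibitor of lipoprotein lipase, at 5217, 5482 and 4896 against 16435, 14494 and 15212 (log2FC 1.57, standard error 0.11, adjusted p = 1.71e-06). The samples of Angptl4 lay close together within each group and far apart between them. Acss2 and Acss3, which activate acetate and propionate, had log2FC of −0.98 and −1.49. Of the genes of triglyceride synthesis and glycerol, 1 of 18 members tested rose (2 without S2) and 5 fell, with a median log2FC of −0.43. Gpam, which adds the first acyl group to glycerol phosphate, fell from 6739, 5577 and 5732 to 2722, 1731 and 2519 (log2FC −1.37, standard error 0.17, adjusted p = 0.000113). The glycerol channel Aqp7 and the dehydrogenase Gpd1 fell (log2FC −0.90 and −0.76), as did Dgat2, and the acyltransferase Agpat4 rose (1.22). The fifth lowered gene, Pcx, had overlapping groups (log2FC −1.05, adjusted p = 0.0333, 0.125 without E1, 0.0812 without E2, 0.141 without S2, 0.0847 without S3).

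Genes for the synthesis of fatty acids and sterols fell in part. In the list of lipogenesis and desaturation, 1 of 19 members tested rose (2 without E3) and 5 fell (3 without E2), with a median log2FC of −0.34. Scd1, the stearoyl-CoA desaturase, had 379265, 416488 and 518029 against 202040.0, 133455 and 304733 (log2FC −1.03, standard error 0.24, adjusted p = 0.00706). The citrate carrier Slc25a1 had a log2FC of −1.05, malic enzyme Me1 of −0.98, and the raised member was Fads3 (0.69). Acly and Fads1 were the other lowered members. Among genes of cholesterol synthesis, 0 of 24 members tested rose (1 without E2) and 12 fell, with a median log2FC of −0.52. Dhcr7 (chromosome 7, 151009072 to 151034315, plus strand), which takes the last step to cholesterol, fell from 1178, 1154 and 1056 to 499, 320.4 and 393 (log2FC −1.48, standard error 0.16, adjusted p = 3.34e-05). The groups of Dhcr7 lay wide apart, with S2 the lowest. Tm7sf2, a sterol reductase, had a log2FC of −1.102, and Idi1, the isomerase of isopentenyl diphosphate, of −1.01. Among genes of oxysterols and the receptor LXR, 1 of 11 members tested rose and 6 fell, with a median log2FC of −0.72. The raised gene was Ch25h. Cyp27a1, which makes 27-hydroxycholesterol, fell from 734, 699.8 and 633 to 352, 269 and 325 (log2FC −1.12, standard error 0.16, adjusted p = 0.000264), as did Smpdl3a (−1.11), a known target of LXR. Apoe, which carries lipids, had a log2FC of −1.34 (adjusted p = 0.0137, 0.0582 without E1, 0.0705 without S2). Nr1h3, which encodes LXRα, had a log2FC of −0.97 (adjusted p = 0.0304, 0.118 without E1, 0.0745 without E2, 0.127 without S2, 0.0796 without S3).

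Genes of pyruvate oxidation and of glycolysis parted. Pdk4 (chromosome 6, 5433351 to 5446278, minus strand), the kinase that switches pyruvate dehydrogenase off and a known PPAR target, rose from 1749, 2138 and 2481 to 6008, 5274 and 8078 (log2FC 1.61, standard error 0.17, adjusted p = 3.05e-05). All stimulated samples were more than 2-fold above the highest etomoxir sample. Pdk4 was the raised member of its list, pyruvate dehydrogenase and the TCA cycle, in which 1 of 27 members tested rose and 15 fell, with a median log2FC of −0.61. Pdk2, another kinase of the complex, fell from 1548, 1372 and 1133 to 846, 491 and 686 (log2FC −1.001, standard error 0.22, adjusted p = 0.00502). The mitochondrial pyruvate carrier Mpc1 had a log2FC of −0.82, the succinate dehydrogenase subunit Sdha of −0.85, and Pdpr, a regulator of the complex, of −0.84. For glucose uptake and glycolysis, 11 of 26 members tested rose and 3 fell (5 without E3), with a median log2FC of 0.70. The glucose carrier Slc2a1 (chromosome 4, 118781350 to 118809934, plus strand) had 2741, 2276 and 1585 against 11795, 9442 and 7566 (log2FC 2.13, standard error 0.25, adjusted p = 8.18e-05). The lactate exporter Slc16a3 was at 142, 149 and 88.1 against 1035, 859 and 765 (log2FC 2.81, standard error 0.25, adjusted p = 7.66e-06). Both separated the groups fully, as did Hk2, the hexokinase bound to mitochondria (log2FC 1.36), and the carrier Slc2a3 (1.88). Lowered were Pfkfb1 and Pfkfb2, which make the activator of phosphofructokinase (log2FC −1.27 and −0.93). The third lowered member was the insulin-regulated carrier Slc2a4 (log2FC −0.49, adjusted p = 0.04, 0.109 without E1, 0.0957 without E2, 0.168 without S2).

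Most genes known as targets of hypoxia-inducible factors rose, with a median log2FC of 1.35 against 0.01 over all genes tested. Of the list, 12 of 18 members tested rose and 1 fell. Ndrg1 (chromosome 15, 66760880 to 66801203, minus strand) rose from 225, 209 and 186 to 1074, 1274 and 1112 (log2FC 2.49, standard error 0.15, adjusted p = 3.47e-07). Ddit4, an inhibitor of mTORC1, rose from 1118, 900.1 and 527 to 7058, 4238 and 4979 (log2FC 2.67, standard error 0.32, adjusted p = 9.03e-05). E3 was the lowest sample for both. Vegfa, the growth factor of blood vessels, rose from 8484, 8654 and 8592 to 18894, 20138 and 22258 (log2FC 1.26, standard error 0.11, adjusted p = 7.34e-06). No groups overlapped for these genes. Ero1l, an oxidase of the endoplasmic reticulum, had a log2FC of 2.31, and the carbonic anhydrase Car9, at few counts, of 2.09. The lowered member was Epas1, which encodes HIF-2α, at 2012, 1909 and 1642 against 792, 562 and 709 (log2FC −1.43, standard error 0.16, adjusted p = 4.13e-05).

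A part of the respiratory chain genes fell. Of its nuclear-encoded genes, 0 of 38 members tested rose and 17 fell (11 without E2 or S2), with a median log2FC of −0.55. Cox15, an assembly factor of complex IV, had 1676, 1664 and 1839 against 856, 788 and 1000.2 (log2FC −0.96, standard error 0.11, adjusted p = 7.91e-05). Ndufs3 and Ndufb3 of complex I had log2FC of −0.71 and −0.67. Of the mitochondrial ribosome, 0 of 77 members tested rose and 11 fell (6 without E1, 4 without E2, 5 without S2), with a median log2FC of −0.32. That lowered share was close to the 12.8% of all genes. Among carriers of the inner membrane (SLC25 family), 3 of 44 members tested rose and 8 fell (5 without S2), with a median log2FC of −0.28. Slc25a37, which imports iron into mitochondria, rose from 693, 640.0 and 754 to 1761, 2252 and 1802 (log2FC 1.49, standard error 0.12, adjusted p = 4.66e-06). Slc25a23, a carrier of ATP and phosphate, fell (log2FC −1.32), and Slc25a43 and Slc25a25 were the other raised members.

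Genes for the oxidation of branched-chain amino acids fell in large part. Of its genes, 1 of 21 members tested rose and 16 fell (8 without S2), with a median log2FC of −1.04. Ivd (chromosome 2, 118687736 to 118707093, plus strand), isovaleryl-CoA dehydrogenase of leucine breakdown, fell from 2825, 2590.4 and 2255 to 1064, 688 and 993 (log2FC −1.48, standard error 0.17, adjusted p = 7.36e-05). Mccc1, a subunit of the carboxylase after it, fell from 2318, 2331 and 2370.3 to 1048, 830.0 and 1192 (log2FC −1.19, standard error 0.12, adjusted p = 2.21e-05). The stimulated samples of both were all below the lowest etomoxir sample. The raised member was Bcat1 (chromosome 6, 144942355 to 145024677, minus strand), the cytosolic transaminase, at 752, 815 and 731 against 2586, 3603 and 2669 (log2FC 1.95, standard error 0.15, adjusted p = 2.99e-06).

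**Figure D3:**
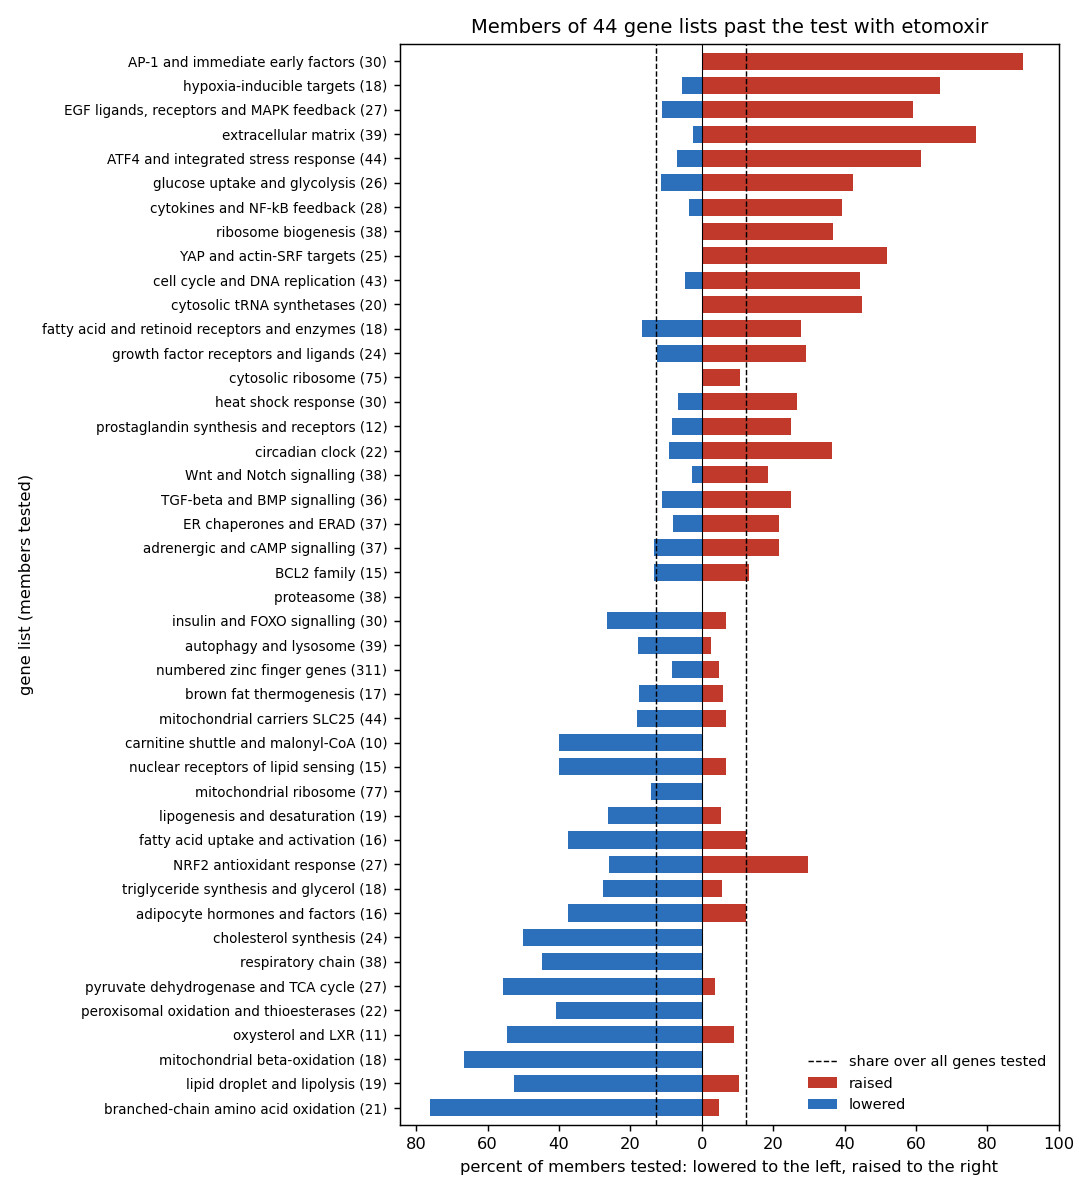
Share of the members tested of each of 44 gene lists that fell (blue, to the left) or rose (red, to the right) with SR-3420 in etomoxir-treated cells, ordered by the median log2FC of the list, with the number of members tested in parentheses. Dashed lines mark the shares over all genes tested, 12.8% lowered and 12.5% raised; lists of early factors, hypoxia targets and EGF ligands stand at one end and those of branched-chain amino acids, lipid droplets and beta-oxidation at the other.

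Immediate early factors, the first genes transcribed after a stimulus, had the highest median of the lists (1.81). Of these genes, 27 of 30 members tested rose and 0 fell, 20 of the raised at least 2-fold. Egr1, a zinc finger factor induced by growth factors, had 1606, 1528 and 1329.6 against 12825, 8899.8 and 11064 (log2FC 2.88, standard error 0.15, adjusted p = 1.58e-07). Egr3 was at 64.3, 94.7 and 62.3 against 496, 570.2 and 523 (log2FC 2.85, standard error 0.21, adjusted p = 2.28e-06). The AP-1 subunit Fosb was at 21.7, 39.2 and 38.8 against 182, 279 and 245 (log2FC 2.84, standard error 0.25, adjusted p = 7.80e-06). In each of these genes the lowest stimulated sample exceeded the highest etomoxir sample more than 4-fold. Egr2 had a log2FC of 2.83, Myc, which drives growth, of 2.32, and Zfp36, which degrades short-lived mRNAs, of 1.85.

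Of EGF receptors, their ligands and inhibitors of MAP kinase signalling, more genes rose than fell. In that list, 16 of 27 members tested rose and 3 fell (0 without E1, E2 or S2, 1 without S1 or S3), with a median log2FC of 0.92. Areg (chromosome 5, 91568641 to 91577458, plus strand), amphiregulin, whose promoter is printed above, rose from 0.906, 9.80 and 2.35 to 101, 164 and 95.7 (log2FC 4.80, standard error 0.52, adjusted p = 4.05e-05). Its etomoxir samples were close to 0, so that the size of its fold change is uncertain. Hbegf, another ligand, had 417, 491 and 401 against 2676, 3095 and 2422 (log2FC 2.65, standard error 0.16, adjusted p = 4.65e-07). Dusp5, a nuclear phosphatase of ERK, was at 630.3, 532 and 390.0 against 5497, 4408 and 3297 (log2FC 3.09, standard error 0.31, adjusted p = 2.21e-05). Groups did not overlap for any of these. Spry2, an inhibitor of receptor tyrosine kinases, had a log2FC of 2.50. The lowered members were the ligands Egf and Tgfa and the receptor Erbb3.

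The secreted signals Lif, Il11 and Il6 rose from low counts. Lif (chromosome 11, 4157571 to 4172517, plus strand), a cytokine of the interleukin 6 family, had 27.2, 33.7 and 22.3 against 326, 366 and 279.7 (log2FC 3.54, standard error 0.29, adjusted p = 4.05e-06). Il11 was at 8.15, 16.3 and 9.40 against 63.0, 146 and 76.9 (log2FC 3.07, standard error 0.45, adjusted p = 0.000351). Il6 rose from 1.81, 5.44 and 12.9 to 30.9, 73.6 and 94.0 (log2FC 3.34, standard error 0.72, adjusted p = 0.00443). Groups did not overlap for any of the 3, though Il6 was close to 0 in E1. Of cytokines and feedback genes of NF-kB, 11 of 28 members tested rose and 1 fell (0 without E1, E2, S2 or S3), with a median log2FC of 0.61. The lowered one was Tnip1. For prostaglandin synthesis and receptors, 3 of 12 members tested rose and 1 fell (2 without S3), with a median log2FC of 0.23. Ptgs2 (chromosome 1, 151947254 to 151955142, plus strand), the inducible cyclooxygenase, rose from 538, 925 and 1109 to 3907, 7327 and 6609.6 (log2FC 2.81, standard error 0.30, adjusted p = 4.01e-05). Ptgs1, the constitutive one, rose from 700.1, 800.0 and 752 to 1626, 1822 and 1527 (log2FC 1.15, standard error 0.11, adjusted p = 2.21e-05). The prostacyclin receptor Ptgir had a log2FC of 1.12, and the receptor of prostaglandin F, Ptgfr, fell (−1.27).

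Among receptors and enzymes of fatty acids and retinoids, 5 of 18 members tested rose and 3 fell, with a median log2FC of 0.41. Cyp26b1, which breaks down retinoic acid, had 135, 129.5 and 116 against 348, 308 and 255 (log2FC 1.26, standard error 0.18, adjusted p = 0.000303). Aldh1a1 and Aldh1a3, which form retinoic acid, had log2FC of 1.099 and 1.504, and the retinoic acid-binding Crabp2 of 1.39. The fifth raised gene was the receptor Rarg. The lactate receptor Hcar1 fell from 509.9, 556 and 537 to 233, 141 and 241 (log2FC −1.37, standard error 0.20, adjusted p = 0.000339). Ffar2, a receptor of short-chain fatty acids, and Rdh10, a retinol dehydrogenase, had log2FC of −1.09 and −0.43. Ffar4, a receptor of long-chain fatty acids, was at 460.1, 360.3 and 350.0 against 525, 222 and 669.8, with S2 below and S1 and S3 above the etomoxir samples. It did not pass the test (log2FC 0.28, adjusted p = 0.547), and without S3 its log2FC was −0.056. Its log2FC was 1.65 without inhibitor (adjusted p = 0.0177) and −2.34 with triacsin C (adjusted p = 0.000103).

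Most genes of the integrated stress response rose, in which the factor ATF4 is translated when eIF2 is phosphorylated. Of the list, 27 of 44 members tested rose and 3 fell, with a median log2FC of 0.77, and 17 of the raised did so at least 2-fold. Atf3 (chromosome 1, 192994176 to 193007212, minus strand), a factor induced by stress, rose from 302, 317 and 264 to 2622, 3286 and 3031 (log2FC 3.34, standard error 0.15, adjusted p = 5.88e-08). Ddit3, which encodes CHOP, had 2647, 1911 and 1448 against 8595, 7842 and 5669 (log2FC 1.88, standard error 0.24, adjusted p = 0.000139). Atf4 itself was at 8201, 7811 and 8516 against 11475, 13026 and 12244 (log2FC 0.59, standard error 0.12, adjusted p = 0.00243). None of these groups overlapped. The hormone Gdf15, a known target of this response, rose from 1404, 1051 and 675 to 6192, 4324 and 3235 (log2FC 2.13, standard error 0.38, adjusted p = 0.0014). Fgf21, another hormone among its targets, rose from 44.4, 47.9 and 44.6 to 138, 136 and 145 (log2FC 1.62, standard error 0.16, adjusted p = 2.30e-05). Both separated the groups. Ppp1r15a, the phosphatase subunit that ends eIF2 phosphorylation, had a log2FC of 2.19, the secreted Stc2 of 2.28 and the cystine carrier Slc7a11 of 1.99. Lowered were the transaminase Gpt2 (−0.54) and Cbs (−1.42), which makes cystathionine. The third was Eif2ak1, a kinase of eIF2 (log2FC −0.39, adjusted p = 0.0239, 0.0866 without E2, 0.0746 without S1, 0.0912 without S2). Of the cytosolic tRNA synthetases, 9 of 20 members tested rose and 0 fell, with a median log2FC of 0.46. Nars had 3613, 3686 and 3753 against 6138, 7780.2 and 7039 (log2FC 0.93, standard error 0.11, adjusted p = 0.000105), and Sars, Tars and Cars had log2FC of 0.90, 0.73 and 0.71.

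Genes of protein folding rose in part. Of ER chaperones and degradation factors, 8 of 37 members tested rose and 3 fell (1 without E2 or E3, 0 without S2 or S3), with a median log2FC of 0.17. Hspa5 (chromosome 2, 34627610 to 34632049, plus strand), the chaperone BiP, went from 12979, 12123 and 13219 to 26738, 28218 and 24730.1 (log2FC 1.06, standard error 0.14, adjusted p = 0.000202), with separate groups. Herpud1 and the stress sensor Atf6 had log2FC of 0.73 and 0.70, and the lowered members were Derl3, Edem2 and Ero1lb. Of the heat shock list, 8 of 30 members tested rose and 2 fell, with a median log2FC of 0.25. The inducible HSP70 genes Hspa1a and Hspa1b are near-identical neighbours between which reads may be split. Hspa1a was at 53.4, 27.2 and 25.8 against 437, 316 and 192 (log2FC 3.13, standard error 0.46, adjusted p = 0.000375). Hspa1b was at 733, 506 and 348 against 2245, 1615 and 1084 (log2FC 1.64, standard error 0.41, adjusted p = 0.0107). In both, E1 was the highest etomoxir sample and S3 the lowest stimulated one, without overlap. The small chaperone Hspb1 rose (log2FC 1.28), and Hspb8 and Dnajb2 fell (−0.66 and −0.63). For the antioxidant response of NRF2, 8 of 27 members tested rose and 7 fell, with a median log2FC of −0.42. Sulfiredoxin Srxn1 and the autophagy receptor Sqstm1 rose (log2FC 0.84 and 0.77). The NADPH-forming Me1 and G6pdx and glutathione transferase Gstm1 fell (log2FC −0.98, −0.74 and −1.14). The metallothionein Mt2, which binds metals, rose from 742, 567 and 632 to 3202, 3329 and 2716 (log2FC 2.26, standard error 0.14, adjusted p = 7.59e-07).

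Genes of degradation and of cell death differed by list. Of the proteasome genes, 0 of 38 members tested rose and 0 fell (2 without E3), with a median log2FC of −0.05. By edgeR at an unadjusted p under 0.05, for which the share of all genes is not given, 0 were higher and 3 lower. DESeq2 called 0 raised and 3 lowered members, and 1884 raised and 1984 lowered among all genes. Of autophagy and lysosome genes, 1 of 39 members tested rose (2 without S1 or S3) and 7 fell (4 without E1 or E2, 3 without S2), with a median log2FC of −0.11, the raised one being Sqstm1. Of the BCL2 family, 2 of 15 members tested rose (1 without E1, E2, S2 or S3) and 2 fell (1 without S1), with a median log2FC of −0.02. Mcl1, which protects from cell death, rose (log2FC 0.67), and Bmf, which promotes it, fell (−1.22). The others were Pmaip1, raised, and Bcl2l11, lowered. In the fit of all samples the shares of the BCL2 family were near those of all genes, and the lowered share of autophagy and lysosome genes was above the 12.8% of all genes.

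Genes of adipocyte identity were mostly lowered where they changed. Among adipocyte hormones and factors, 2 of 16 members tested rose and 6 fell, with a median log2FC of −0.46. Adipoq (chromosome 16, 23146609 to 23158041, plus strand), adiponectin, fell from 42349, 35366 and 30903 to 18888, 10978 and 16136 (log2FC −1.24, standard error 0.21, adjusted p = 0.000922). Retn, resistin, fell from 6809, 6007 and 5233 to 2899.6, 1962 and 2467 (log2FC −1.30, standard error 0.18, adjusted p = 0.000206). All stimulated samples were below all etomoxir samples for both. The factor Klf15 had a log2FC of −1.39. The β3-adrenergic receptor Adrb3 had −1.23 (adjusted p = 0.0128, 0.052 without E1, 0.0677 without S2). The raised members were Vegfa and Cebpd, a factor of early fat cell differentiation (0.80). Fabp4, the fatty acid-binding protein of fat cells, was at 87564, 90041 and 125536 against 45728, 43072 and 78449 (log2FC −0.85, standard error 0.22, adjusted p = 0.0142, 0.0512 without E3, 0.0517 without S1, 0.0698 without S2). The sums of adipocyte markers given above moved with these genes, and their part was not tested.

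In the list of brown fat thermogenesis, 1 of 17 members tested rose (2 without E1) and 3 fell, with a median log2FC of −0.18. The raised gene was Fgf21. Cox8b, a brown fat subunit of complex IV, fell from 1367, 1549.9 and 1144 to 537, 543 and 617 (log2FC −1.25, standard error 0.17, adjusted p = 0.000245). Irf4, a factor of thermogenic genes, fell from 722, 694 and 879 to 340.2, 387 and 384 (log2FC −1.04, standard error 0.11, adjusted p = 4.05e-05). Both separated the groups, and the third lowered gene was the proton-coupled amino acid carrier Slc36a2 (−0.88). Ucp1 was at 29.9, 9.80 and 14.1 against 32.0, 42.8 and 44.2, with E1 far above the other etomoxir samples (log2FC 1.11, standard error 0.47, adjusted p = 0.0998, 0.0312 without E1). Ppargc1a, the coactivator of mitochondrial biogenesis, was at 830.5, 765 and 1216 against 601, 509 and 1065 with overlapping groups (adjusted p = 0.29, 0.0111 without S3). Of the nuclear receptors of lipid sensing, 1 of 15 members tested rose (0 without E2, E3, S1 or S2) and 6 fell, with a median log2FC of −0.29. Pparg, the main PPAR of fat cells, fell from 3255, 3562 and 4218 to 1844, 1685 and 2803 (log2FC −0.79, standard error 0.17, adjusted p = 0.0046). Rxra and Rxrg, its partners on DNA, had log2FC of −0.91 and −1.03. The raised receptor was Nr1d1 (REV-ERBα), which represses clock genes, at 1436, 1079 and 807 against 2674, 1671 and 1653 (log2FC 0.85, adjusted p = 0.0405, 0.108 without E2, 0.117 without E3, 0.145 without S1, 0.0595 without S2).

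Hormonal and clock genes moved both ways. Of insulin and FOXO signalling genes, 2 of 30 members tested rose (1 without E1, E2, S1 or S3, 0 without S2) and 8 fell, with a median log2FC of −0.07. The insulin receptor Insr fell from 4026, 3768 and 4286 to 2459, 1819 and 2876 (log2FC −0.75, standard error 0.15, adjusted p = 0.00236), and so did Irs3 (−1.38) and Sesn1 (−0.97), a FOXO target. The raised members were Igf2r and Grb10. Of adrenergic and cAMP signalling genes, 8 of 37 members tested rose (5 without E2, 4 without S2) and 5 fell (2 without E1, 3 without E2 or S1, 1 without S2), with a median log2FC of 0.13. Adra2a, a receptor that restrains cAMP, rose at low counts from 3.62, 6.53 and 9.40 to 29.8, 49.8 and 27.8 (log2FC 2.47, standard error 0.48, adjusted p = 0.00231). The kinase Sik1, a target of CREB, rose from 690.1, 639 and 489 to 2523, 1771 and 1803 (log2FC 1.75, standard error 0.19, adjusted p = 4.68e-05). Rgs2, which shortens G protein signals, fell (−1.26), as did Adrb3, Adcy9, Prkar2b and Sik2. Among clock genes, 8 of 22 members tested rose (4 without E2, 5 without S1) and 2 fell, with a median log2FC of 0.21. Bhlhe40, a repressor of the clock, had 1272, 1278 and 1279 against 4586, 4254 and 6122 (log2FC 1.97, standard error 0.15, adjusted p = 2.28e-06). Ciart, another repressor, was at 77.0, 75.1 and 56.4 against 313, 296 and 276 (log2FC 2.08, standard error 0.17, adjusted p = 3.25e-06). Per1 had a log2FC of 1.02, and Per3 and Tef of −1.25 and −0.67. The core factor Arntl had overlapping groups at 246, 263 and 304 against 249, 299.5 and 370.5 (adjusted p = 0.513).

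Most matrix genes rose. Of the extracellular matrix list, 30 of 39 members tested rose and 1 fell (0 without E1, E2 or S2, 2 without S3), with a median log2FC of 0.89, and 13 of the raised did so at least 2-fold. Fn1 (chromosome 1, 71632047 to 71699808, minus strand), fibronectin, rose from 28825, 20861 and 15944 to 72089, 58487 and 40032 (log2FC 1.38, standard error 0.25, adjusted p = 0.00155). Col6a3, a chain of collagen VI, rose from 23101, 18242 and 14467 to 50011, 42063 and 29788 (log2FC 1.13, standard error 0.22, adjusted p = 0.00225). For both genes replicate 1 was the highest and replicate 3 the lowest in either group, without overlap. Thbs1 and Thbs2 had log2FC of 1.04 and 1.43, Loxl2, which crosslinks collagen, of 1.44 and Timp3, an inhibitor of metalloproteinases, of 1.62. The lowered member was Sparcl1. The sums of fibroblast markers given above moved with this list, and their part in it was not tested.

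Genes of TGF-beta, YAP, Wnt and growth factor signalling rose in part. Of TGF-beta and BMP signalling genes, 9 of 36 members tested rose and 4 fell (2 without E1, E3 or S1, 1 without S2), with a median log2FC of 0.18. The activin subunit Inhba rose from 1191, 1259 and 881 to 4933, 6244 and 3137 (log2FC 2.11, standard error 0.24, adjusted p = 5.91e-05). Tgfb1 had a log2FC of 1.02, the corepressor Tgif1 of 2.03 and Gdf5, a ligand of the BMP class, of −1.16. The other lowered members were Acvr1b, Acvr1c and Id2. Of targets of YAP and of actin and SRF, 13 of 25 members tested rose (8 without E2, 7 without S2) and 0 fell, with a median log2FC of 0.52. The actin-binding Cnn1 and Cnn2 had log2FC of 0.80 and 0.85. Of Wnt and Notch genes, 7 of 38 members tested rose (4 without E1 or S2) and 1 fell (3 without E3, 2 without S1, 0 without S2), with a median log2FC of 0.21. Notch3 had a log2FC of 1.51 and the Wnt antagonist Sfrp1 of 0.81, and the lowered gene was the receptor Fzd4. Of growth factor receptors and ligands, 7 of 24 members tested rose and 3 fell, with a median log2FC of 0.38. Fgfr2, a receptor of fibroblast growth factors, fell from 1496, 1503 and 1482 to 879, 663 and 945 (log2FC −0.84, standard error 0.13, adjusted p = 0.000409), with separate groups, and Met, the receptor of hepatocyte growth factor, had a log2FC of −1.11. The third lowered member was Vegfb.

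Of the genes of growth and division, more rose than fell, and most did not pass the test. The sums of dividing cell and fibroblast markers given above moved with them, and their part was not tested. Of cell cycle and replication genes, 19 of 43 members tested rose (10 without S2) and 2 fell (0 without E2 or S2, 1 without S1), with a median log2FC of 0.50. Rrm2, which makes deoxynucleotides, had 1329, 1678 and 2193 against 2611, 4009 and 3953 (log2FC 1.04, standard error 0.25, adjusted p = 0.00753), and E2f8 a log2FC of 1.00. The lowered members were Cdkn2c and E2f2. Of ribosome biogenesis genes, 14 of 38 members tested rose (7 without S2) and 0 fell, with a median log2FC of 0.53. Nop14, which acts on the small subunit, had a log2FC of 0.86. Of the cytosolic ribosome, 8 of 75 members tested rose (2 without E2, 4 without S2) and 0 fell, with a median log2FC of 0.36. That raised share was below the 12.5% of all genes. Ribosomal protein genes are short and abundant and have many near-identical pseudogenes, so their counts are uncertain. Of numbered zinc finger genes, 15 of 311 members tested rose (9 without E2 or S2) and 26 fell (14 without E2, 15 without S2), with a median log2FC of −0.12, shares below those of all genes in both directions.

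The response was set against that of cells without inhibitor, in which CPT1 was not blocked. The comparisons share no sample. Without inhibitor, the vehicle samples were replicates 2 and 3 and those with SR-3420 replicates 1 and 3. Differences between replicates and the response to SR-3420 can thus not be fully told apart there. Of the 556 genes raised at least 2-fold with etomoxir, 311 (55.9%) also passed as raised without inhibitor, which is 51.2% of the genes raised there. Of all genes tested, 4.75% rose without inhibitor and 2.79% fell. The median log2FC of these 556 genes was 1.33 with etomoxir, where the choice fixed it, and 1.097 without inhibitor. Of the 580 genes lowered at least 2-fold, 165 (28.4%) also passed as lowered there, 46.2% of the genes lowered without inhibitor. The medians were −1.26 and −0.80. With 2 samples a group, fewer calls without inhibitor do not show a smaller response. The difference between both responses passed for 0 genes (0%) by edgeR. At an unadjusted p under 0.05 it held 307 of the 12786 genes tested, fewer than that threshold would pass without any difference. DESeq2 called 9. The median standard error of a difference, calculated back from the test, was 0.37 on the log2 scale. Differences of about this size could not be told from 0. The smallest adjusted p was that of Fgf21, with a difference of −2.08 (standard error 0.29, adjusted p = 0.0692). Its log2FC was 1.62 with etomoxir, 3.70 without inhibitor and 2.13 with triacsin C. For Cpt1a it was 0.43 with etomoxir, 1.09 without inhibitor and 0.50 with triacsin C, and for Pdk4 1.61 with etomoxir, 2.25 without inhibitor and 1.19 with triacsin C. None of the differences of these 3 genes, from either setting, passed the test.

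**Figure D4:**
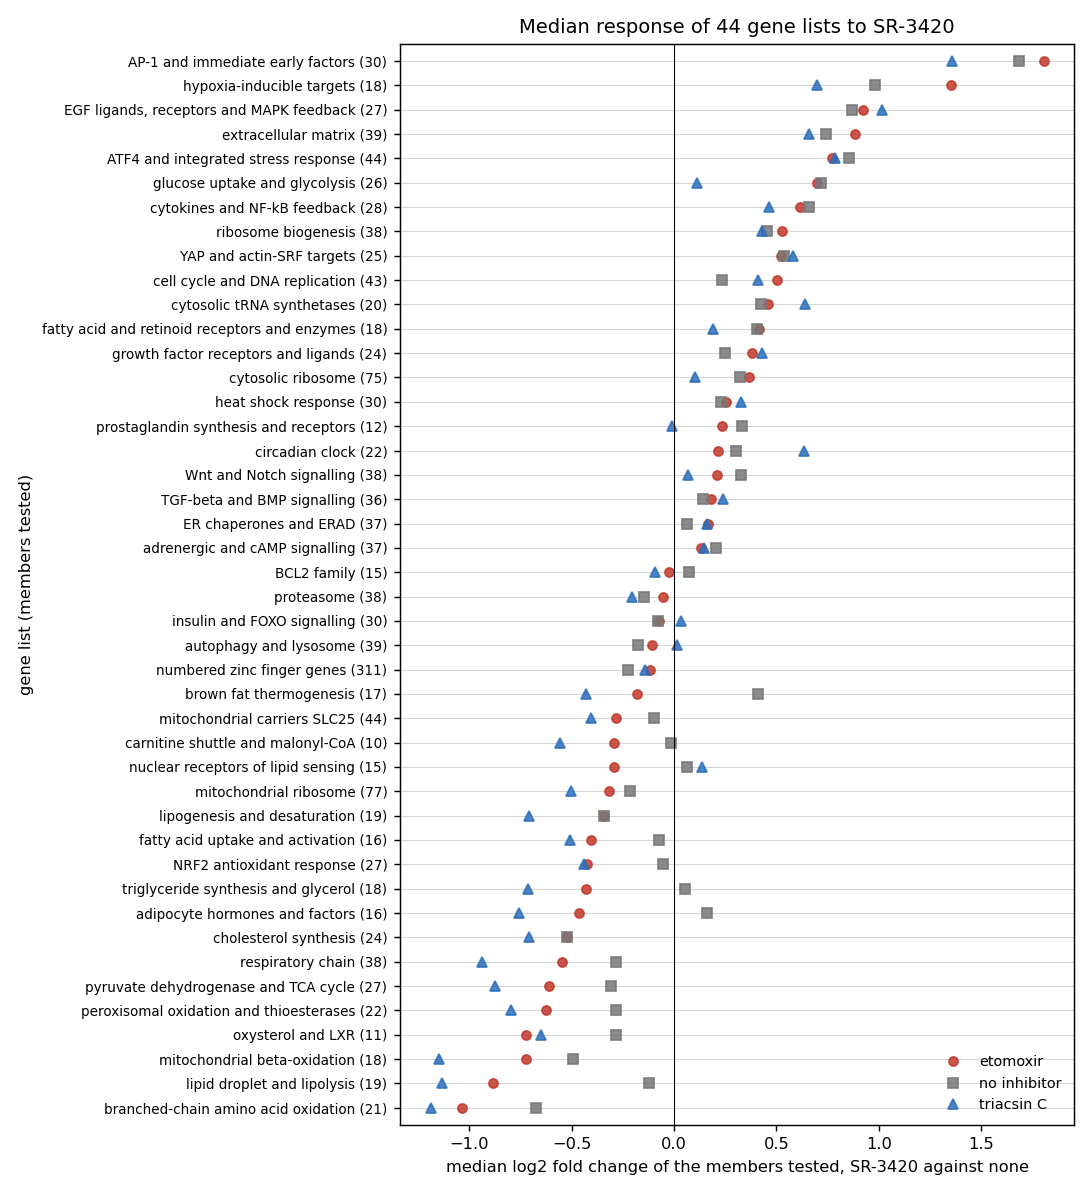
Median log2 fold change by SR-3420 of the members tested of each of 44 gene lists, with etomoxir (red circles), without inhibitor (grey squares) and with triacsin C (blue triangles), ordered by the value with etomoxir. The lipid droplet list lies at −0.88 with etomoxir, −0.12 without inhibitor and −1.13 with triacsin C. Differences between the medians of lists were not tested. Without inhibitor, the samples with and without SR-3420 were not all of the same replicate numbers.

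Against triacsin C, which stops fatty acids from being activated, the response differed for 293 genes in the interaction test of edgeR. It was more positive with etomoxir for 99 genes (0.774%) and more negative for 194 (1.52%). The total was 156 without E2 and 191 without S1. It was 682 with DESeq2, 1055 with the replicate number as a block and 1005 with trends over GC content removed. Of the genes with a more positive response, 20 were raised and 18 lowered with etomoxir, while 85 were lowered with triacsin C. Those with a more negative response held 67 lowered and 13 raised with etomoxir, and 169 raised with triacsin C. Of the genes raised at least 2-fold with etomoxir, 443 (79.7%) were raised with triacsin C, which is 20.1% of those raised there. Of all genes tested, 17.3% rose and 19.7% fell with triacsin C. The response differed for 15 of the genes raised at least 2-fold. Of the genes lowered at least 2-fold, 451 (77.8%) were lowered with triacsin C, 17.9% of those lowered there, and 23 differed.

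Among named genes, the log2FC of Mt2 was 2.26 with etomoxir, 1.97 without inhibitor and 0.74 with triacsin C (difference 1.52, standard error 0.20, adjusted p = 0.0021). Hilpda had 3.27 with etomoxir, 2.73 without inhibitor and 2.00 with triacsin C (difference 1.27, standard error 0.22, adjusted p = 0.00937). Bhlhe40 had 1.97 with etomoxir, 1.19 without inhibitor and 0.62 with triacsin C (difference 1.35, standard error 0.20, adjusted p = 0.00529). These 3 genes rose in each setting, by a larger log2FC with etomoxir than with triacsin C. Insr went the other way, with −0.75 with etomoxir, −0.40 without inhibitor and 0.26 with triacsin C (difference −1.01, standard error 0.21, adjusted p = 0.0216). So did Irf4, with −1.04 with etomoxir, −1.02 without inhibitor and −0.20 with triacsin C (difference −0.84, standard error 0.16, adjusted p = 0.0138). These differences passed the test also when E1, E2, E3, S1, S2 or S3 was left out. Each log2FC is relative to the same inhibitor without SR-3420, and levels with triacsin C alone are not printed here. By the paper, triacsin C alone modestly raised lipolysis-activated genes that did not depend on fatty acid activation. The part of such starting levels in the differences was not tested.

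**Figure D5:**
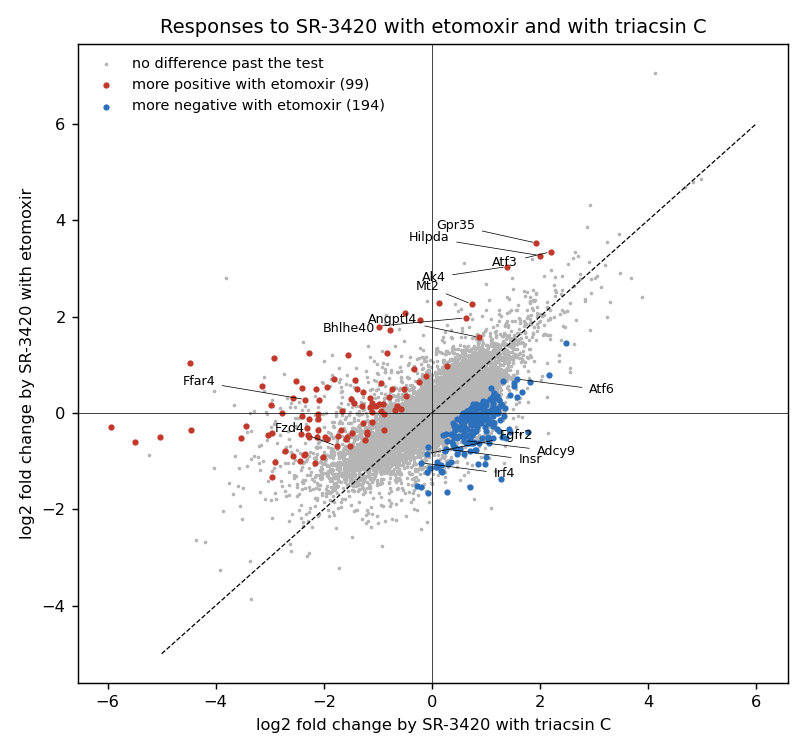
Each point is a gene, with its log2 fold change by SR-3420 with triacsin C on the x axis and with etomoxir on the y axis; the dashed line marks equal responses. Genes whose responses differ in the interaction test are coloured, 99 in red (more positive with etomoxir) and 194 in blue (more negative), and the named ones among them are labelled.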

How the data were processed

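RNA-seq counts of 16 samples in 6 groups were used. The authors mapped reads to mouse genome mm9 with STAR 2.4.2a, kept 1 read of each length per position with HOMER and counted reads per gene with iRNA-seq; the deposited values are these whole-number counts, not normalized. Strand use in counting was not stated. Fabp4 had up to 106877 counts on 641 bases, so whether the limit per position applied to these counts is unknown. Totals per sample ran from 9452861 to 25670624. Replicate 1 of vehicle and replicate 2 of SR-3420 without inhibitor are in neither the labels nor the table. The genes Gk and Hmgcs1 are missing from the table of 20295 genes. Genes with low counts were removed with filterByExpr, counts were scaled by TMM, and a quasi-likelihood model with 1 mean per group (10 residual degrees of freedom) was fitted in edgeR 4.0.16 (R 4.3.3). Stimulated samples were compared with etomoxir samples, and this response with those of the other settings by interaction terms, all two-sided, with an adjusted p under 0.05 over all genes tested. Printed normalized counts are counts divided by DESeq2's size factors of the 16 samples. Printed standard errors were calculated back from the quasi-likelihood test, as the size of the log2FC over the square root of the statistic F. They are uncertain for values near 0 and for genes with low counts. DESeq2 1.42.0 served as a second tool. edgeR ran with limma 3.58.1, and tables and plots were made with Python 3.11.15, pandas 2.3.3 and matplotlib 3.10.9. The fits were tested on simulated data.

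By the rule for naming genes, genes are named if they were among the 15 with the largest log2FC in size per direction with an adjusted p under 0.05, groups that do not overlap and a mean normalized count of at least 100. Also named are up to 4 changed members with the largest log2FC of each list and direction, 21 genes of interest (Cpt1a, Cpt1b, Cpt2, Slc25a20, Abhd5, Pnpla2, Pdk4, Plin2, Angptl4, Ucp1, Ppargc1a, Fgf21, Gdf15, Atf4, Ddit3, Hspa1a, Hspa5, Nr1d1, Arntl, Ffar4 and Cyp26b1), and the 3 with the highest counts among those changed at least 2-fold in each direction. The text describes part of these 259 genes. Members of counts of 5 or fewer that fall outside the rule were chosen after their values were seen. The genes of interest and the members of the 44 gene lists were chosen with earlier results of these data known. Alternatives were DESeq2's size factors, DESeq2's Wald test, no filter or a stricter filter on low counts, a fit of only the groups compared, a block for the replicate number, omission of each of the 6 samples or of genes that overlap another, a test against a log2FC of 1 in size, and removal of trends over GC content.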

Additional observations from a re-analysis of the deposited data

Results flagged for a closer look

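Of the 259 named genes, 14 responded to SR-3420 differently with etomoxir than with triacsin C in the interaction test of edgeR, 9 more positively and 5 more negatively with etomoxir. Over all genes tested, the response was more positive for 99 (0.774%) and more negative for 194 (1.52%). Values are the response with etomoxir minus that with triacsin C, on the log2 scale. In 8 genes the difference passed the test in all 6 fits that lacked E1, E2, E3, S1, S2 or S3. These were Ffar4 at 2.62 (standard error 0.43, adjusted p = 0.0079), with a response of 0.28 with etomoxir and −2.34 with triacsin C. Further genes were Mt2 at 1.52 (standard error 0.20, adjusted p = 0.0021) and Bhlhe40 at 1.35 (standard error 0.20, adjusted p = 0.00529). Hilpda had a difference of 1.27 (standard error 0.22, adjusted p = 0.00937) and Atf3 of 1.15 (standard error 0.19, adjusted p = 0.0079). Insr had −1.01 (standard error 0.21, adjusted p = 0.0216), Atf6 −0.87 (standard error 0.15, adjusted p = 0.00988) and Irf4 −0.84 (standard error 0.16, adjusted p = 0.0138).

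In the other 6 genes the call was lost when 1 of the samples was left out. Gpr35, at 1.59 (standard error 0.32, adjusted p = 0.0196), did not pass without E2 (highest adjusted p 0.0648). Adcy9, at −1.17 (standard error 0.24, adjusted p = 0.0229), did not pass without E1, E2 or S2 (highest adjusted p 0.0643). Fzd4, at 1.06 (standard error 0.24, adjusted p = 0.0365), did not pass without E1, E2 or S3 (highest adjusted p 0.0982). Angptl4, at 0.70 (standard error 0.15, adjusted p = 0.0322), did not pass without E1, E2, E3 or S1 (highest adjusted p 0.0809). For Ak4, at 1.65 (standard error 0.39, adjusted p = 0.0431), the test failed without E1, E2, E3, S2 or S3 (highest adjusted p 0.104). For Fgfr2, at −0.76 (standard error 0.18, adjusted p = 0.0432), it failed without E1, E2, E3, S1 or S2 (highest adjusted p 0.109). The cause of these differences was not tested.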

How the results depend on the processing

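The number of genes past the test differed between fits that took the spread between replicates in different ways. With only the groups compared in the fit, which leaves fewer samples to estimate the spread, 620 genes were raised, 585 lowered and 354 lowered at least 2-fold. With the replicate number as a block, 2897 were raised and 2879 lowered. The response then differed from that without inhibitor for 3 genes and from that with triacsin C for 1055. The block assumes that samples of the same number belong together. By the study's text the replicates were independent experiments, but whether samples of equal number shared one was not stated. After removal of the group means, samples of equal number correlated at 0.827 (E1 with S1), −0.0065 (E2 with S2) and 0.802 (E3 with S3), and 4 of 6 samples correlated best with the sample of their own number.

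Removal of each sample's trend over GC content was chosen after seeing the data. Among genes with a known GC content it changed the counts from 1502 to 2863 raised and from 1531 to 2749 lowered genes. The response then differed from that without inhibitor for 1 gene and from that with triacsin C for 1005. A test against a log2FC of 1 in size, a stricter question, left 110 raised and 20 lowered genes. DESeq2's Wald test found differences from the response without inhibitor for 9 genes and from that with triacsin C for 682. Raised and lowered counts of genes stayed within 1.5 times those of the report with DESeq2's size factors, DESeq2's Wald test, without filter, with at least 10 counts in every sample and without overlapping genes. Without 1 of the 6 samples, 1041 to 1605 genes were raised, 948 to 1716 lowered and 322 to 700 lowered at least 2-fold, and the response differed from that with triacsin C for 156 to 262. The cause of these shifts was not tested.

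Of the 251 named genes past the test, 251 passed it with DESeq2's Wald test, 250 with its size factors, 251 with the block, 237 without filter and 160 of 250 with only the groups compared. Without 1 sample, 194 (without S2) to 231 (without E3) passed. Of the 8 named genes that did not pass, Cpt1a, Slc25a20 and Abhd5 passed with the block and without the GC trend, and Slc25a20 and Abhd5 with DESeq2's Wald test. Abhd5 also passed with at least 10 counts in every sample and without overlapping genes. None of the 251 genes changed direction in any of these settings. The log2FC of Ffar4, which did not pass the test, reversed to −0.056 without S3 and was 0.61 without S2. Of the 88 counts of raised or lowered members of the 44 lists, 80 stayed within 1.5 times with DESeq2's Wald test, 88 with its size factors, 43 with only the groups compared, 54 with the block and 53 without the GC trend. Leaving out 1 sample, 61 (without S2) to 81 (without E3) did. Depth limits what can be said of genes with low counts. Of the 556 genes raised at least 2-fold, 111 had a mean count under 20 with etomoxir alone. So had 69 of the 580 genes lowered at least 2-fold and 1325 of the 12786 genes tested.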
